A study of Mus musculus with 6 samples.

Results

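The genes described here are 10 members of the BCL2 family, *Bcl2*, *Bcl2l1*, *Mcl1*, *Bax*, *Bak1*, *Bid*, *Bcl2l11*, *Bbc3*, *Bad* and *Pmaip1*, taken by gene symbol from a table of 54532 genes measured by RNA-seq of whole mouse testes. The testes were collected at 5 days postpartum (dpp) from 3 control (Ctrl) and 3 conditional knockout (cKO) mice. The cKO mice carried Vasa-Cre together with 1 floxed and 1 deleted *Srsf1* allele (Srsf1 Fl/del), and the genotype of the Ctrl mice is not given in the sources used here beyond the name Ctrl. *Srsf1* encodes a splicing factor, and the Cre was driven by *Vasa* (*Ddx4*), which is active in germ cells, so the floxed copy was to be removed there and kept in somatic cells. The comparison asked which transcripts differed in level between Ctrl and cKO testes. Somatic cells of the cKO mice also carried the deleted allele. In whole testes its part cannot be told apart from that of the loss in germ cells. Values are FPKM, fragments scaled to gene length in kilobases and to library size, so levels of different genes can be set side by side.

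Reads assigned to genes, as recovered from the FPKM, summed to between 15448191 and 18964743 per sample. *Srsf1* averaged 86.6 FPKM ± 3.85 (SD, n = 3) in Ctrl and 47.7 ± 3.48 in cKO testes, with no overlap and an adjusted p of 0.058. Of the 19 tested germ cell markers, of 20 on the list, 18 were lower in every cKO than in every Ctrl sample, and the summed level of the list ranged from 258 to 602 FPKM in Ctrl and from 80.3 to 122 FPKM in cKO testes. Ctrl 2 stood apart from the other Ctrl samples, with a mean germ cell marker level at 164.5% of the Ctrl mean, against 72.3% in Ctrl 1 and 63.2% in Ctrl 3. No marker of the germ, Sertoli or Leydig cell lists was at 0 in all 6 samples.

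Proteins of the BCL2 family decide whether the outer mitochondrial membrane stays closed or is opened, the step that releases cytochrome c and starts the caspase cascade of the intrinsic pathway of apoptosis. BCL2, BCL-XL (from *Bcl2l1*) and MCL1 keep cells alive, BAX and BAK1 form the pores, and the BH3-only proteins BID, BIM (*Bcl2l11*), PUMA (*Bbc3*), BAD and NOXA (*Pmaip1*) relay death signals by binding the other members through the short BH3 helix. In the testis the family is known for trimming germ cells during the early waves of spermatogenesis, and male mice that lack *Bax* are sterile.

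The BH3 core that links the members was located in the coding sequences as an in-frame leucine codon, 3 codons of any kind, a glycine, alanine or serine codon and an aspartate codon, read on the coding strand only. Leucine was taken as CTN, as TTA or as TTG, glycine as GGN, alanine as GCN, serine as TCN, as AGT or as AGC, and aspartate as GAT or as GAC. The longest coding sequence of 9 of the members held exactly 1 match. The tenth, *Pmaip1*, held 2 matches and is given by its values alone. The pattern is loose, since 34.0% of 21584 mouse protein-coding genes held at least 1 match. The runs below are 30 bases of coding sequence from the GENCODE release for GRCm38, printed 5′ to 3′ on the gene's strand, with the leucine codon and the last pair of fixed codons in capitals. They are shown for the genes on which the comparison below turns, and for *Bcl2l1* and *Bcl2l11* as relatives of *Bcl2* and *Bbc3*.
Bcl2: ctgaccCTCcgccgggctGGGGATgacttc
Bcl2l1: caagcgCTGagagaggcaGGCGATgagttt
Bax: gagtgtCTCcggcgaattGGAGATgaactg
Bid: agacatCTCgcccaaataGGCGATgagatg
Bcl2l11: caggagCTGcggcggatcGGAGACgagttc
Bbc3: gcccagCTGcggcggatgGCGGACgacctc
The *Bcl2* run lay in exon 1 of 2 (chr1:106712578-106712607, minus strand) and the *Bcl2l1* run in exon 2 of 3 (chr2:152829700-152829729, minus strand). The *Bax* run was in exon 3 of 6 (chr7:45466000-45466029, minus strand) and the *Bid* run in exon 4 of 6 (chr6:120897292-120897321, minus strand). Those of *Bcl2l11* (chr2:128147144-128147173, plus strand) and *Bbc3* (chr7:16313767-16313796, plus strand) each lay in exon 3 of 4. The closest pair among all 9 was *Bcl2l11* with *Bbc3*, identical at 21 of 30 bases. *Bcl2* matched *Bax* at 17 bases and *Bid* at 13, and over the 36 pairs the identity ranged from 12 to 21 bases with a median of 16.

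In Ctrl testes the level of the members spanned from *Mcl1*, the highest, to *Bcl2*, the lowest. Mean FPKM was 66.3 for *Mcl1*, 40.2 for *Bax*, 14.3 for *Bcl2l1*, 12.5 for *Bad*, 10.7 for *Bak1*, 7.35 for *Bid*, 5.06 for *Pmaip1*, 3.22 for *Bcl2l11*, 2.90 for *Bbc3* and 1.68 for *Bcl2*. The Ctrl ranges of neighbours in this order overlapped for *Bad* and *Bak1*, for *Bak1* and *Bid*, and for *Bcl2l11* and *Bbc3*, and were apart for all other neighbours. *Mcl1* alone made up 80.6% ± 0.486 (SD, n = 3) of the summed FPKM of the 3 anti-apoptotic genes in Ctrl and 81.1% ± 0.930 in cKO testes, and the share overlapped between the groups.

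The members were compared between groups with limma on log2(FPKM + 1), fitted to the 16206 genes that averaged 0.5 FPKM or more, and p-values were adjusted over all of them with a threshold of 0.05. All 10 members passed this filter and 0 were called. The background was also 0 calls among all genes (0%), and 83 genes (0.512%) were called by limma voom on the recovered reads, none of them a member. The authors' own test of counts, with DESeq2, called genes lower and genes higher in cKO testes at the same threshold. The 0 calls thus depend on the test used. At an unadjusted p under 0.05, 1508 genes (9.31%) were lower and 1069 (6.6%) higher, and 1 member was lower there, *Bid*, and 1 higher, *Bbc3*. Complete separation of the groups was more common, since 12.8% of tested genes were lower in every cKO than in every Ctrl sample and 10.3% were higher. Among the members 1 was lower in this way, *Bid*, and 1 was higher, *Bcl2*, shares of 10 genes that lie near the background. Fitted log2 fold changes, cKO against Ctrl, were negative for 5 members and positive for 5, and their median was -0.0038 beside 0.0027 over all tested genes.

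**Figure D1:**
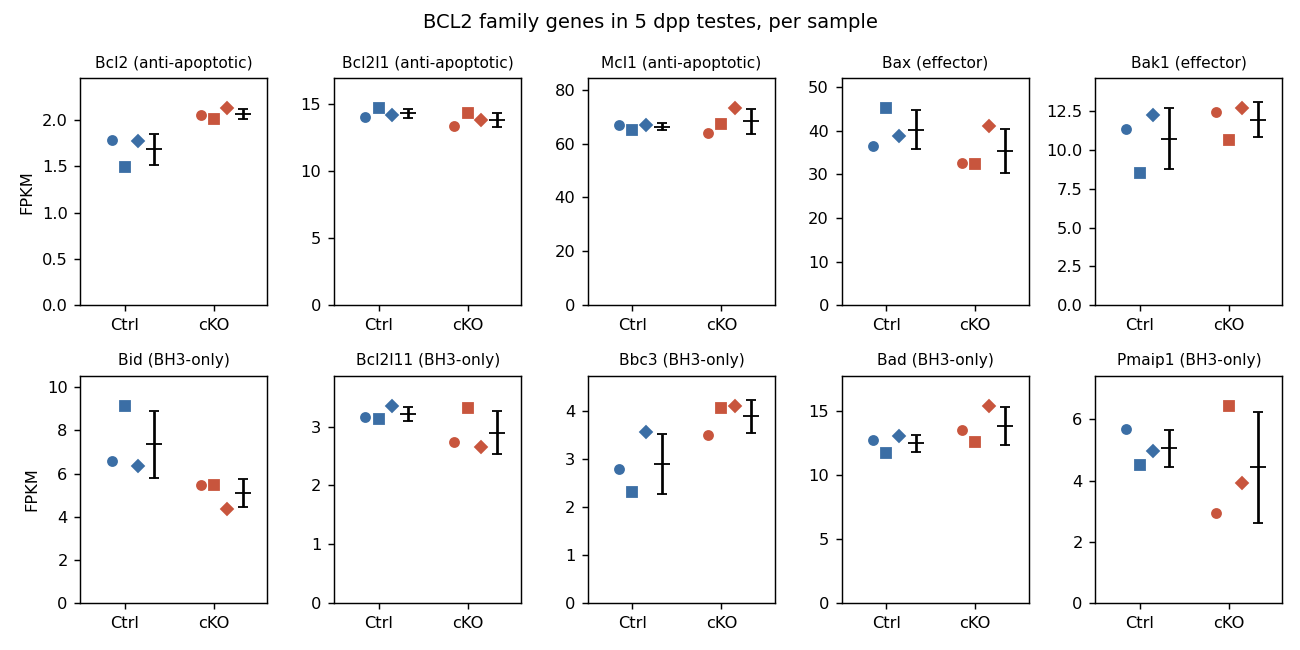
FPKM of each of the 10 genes in each sample, with circles, squares and diamonds for samples 1, 2 and 3 of a group, Ctrl in blue and cKO in red, and bars for the mean ± SD (n = 3). The cKO samples lie wholly below the Ctrl samples for Bid and wholly above them for Bcl2, and the groups overlap for the other 8 genes.

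Of the anti-apoptotic genes, *Bcl2* (ENSMUSG00000057329), the founding prosurvival member, measured 1.78, 1.49 and 1.77 FPKM in Ctrl 1, 2 and 3 and 2.05, 2.01 and 2.13 FPKM in cKO 1, 2 and 3. Every cKO sample was above every Ctrl sample, and Ctrl 2 was the lowest of all. The means were 1.68 ± 0.165 and 2.06 ± 0.0585 FPKM (SD, n = 3), and cKO stood at 123% of Ctrl. The log2 fold change was 0.19 (SE 0.105, 95% interval -0.053 to 0.44) with an adjusted p of 0.417 in limma. At this low level the added 1 FPKM compresses the difference, which was 0.30 by limma voom on the 260 to 308 recovered reads (adjusted p = 0.284).

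*Bcl2l1* (ENSMUSG00000007659), whose long product BCL-XL protects cells and whose short product BCL-XS promotes death, measured 14.0, 14.7 and 14.1 FPKM in Ctrl and 13.3, 14.3 and 13.7 FPKM in cKO testes. The groups overlapped and lay within a narrow band. The log2 fold change was -0.05 (SE 0.075, 95% interval -0.22 to 0.13, adjusted p = 0.799 in limma), and ranged from -0.07 to -0.02 with 1 sample left out. The FPKM is a sum over the 9 annotated transcripts of the gene, so the long and short products cannot be told apart in it.

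*Mcl1* (ENSMUSG00000038612), which encodes a short-lived survival protein, measured 67.0, 64.9 and 67.0 FPKM in Ctrl and 64.0, 67.4 and 73.2 FPKM in cKO testes. The cKO samples straddled the tight Ctrl values. With 3443 to 4221 reads per sample it was the most deeply counted member, and its log2 fold change was 0.04 (SE 0.082, 95% interval -0.16 to 0.23, adjusted p = 0.853 in limma). Its sign turned to -0.013 without cKO 3 and to -0.0070 with sample weights.

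Of the pore formers, *Bax* (ENSMUSG00000003873) measured 36.6, 45.2 and 38.8 FPKM in Ctrl and 32.7, 32.3 and 41.1 FPKM in cKO testes. Ctrl 2 was the highest, and cKO 3 exceeded the other 2 Ctrl samples, so the groups overlapped. The means were 40.2 ± 4.47 and 35.3 ± 4.96 FPKM, and the log2 fold change was -0.18 (SE 0.126, 95% interval -0.48 to 0.11, adjusted p = 0.506 in limma). The difference was -0.10 without Ctrl 2 and -0.29 without cKO 3.

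*Bak1* (ENSMUSG00000057789), the second pore former, measured 11.4, 8.51 and 12.2 FPKM in Ctrl and 12.5, 10.6 and 12.7 FPKM in cKO testes. Ctrl 2 was the lowest sample, and the means were 10.7 ± 1.95 and 11.9 ± 1.12 FPKM. The log2 fold change was 0.15 (SE 0.141, 95% interval -0.18 to 0.49, adjusted p = 0.625 in limma), 0.011 without Ctrl 2 and 0.25 without Ctrl 3.

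Of the BH3-only genes, *Bid* (ENSMUSG00000004446) gave the most negative difference of the 10. BID is cut by caspase-8 and so carries signals from death receptors to the mitochondria. It measured 6.56, 9.14 and 6.33 FPKM in Ctrl and 5.48, 5.48 and 4.34 FPKM in cKO testes. All 3 cKO samples were below all 3 Ctrl samples, and Ctrl 2 was well above the rest. The means were 7.35 ± 1.56 and 5.10 ± 0.658 FPKM (SD, n = 3), cKO standing at 69.4% of Ctrl, on 238 to 618 reads per sample. The log2 fold change was -0.44 (SE 0.152, 95% interval -0.80 to -0.086), with an unadjusted p of 0.0218 and an adjusted p of 0.244 in limma. Without Ctrl 2 the difference was -0.29 (adjusted p = 0.444), and the groups still did not overlap. The separation also held as TPM, after quantile normalisation and as reads scaled to the sum of recovered reads.

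*Bbc3* (ENSMUSG00000002083), the p53 target that encodes PUMA, gave the most positive fitted difference. It measured 2.79, 2.32 and 3.58 FPKM in Ctrl and 3.50, 4.06 and 4.11 FPKM in cKO testes. Only Ctrl 3 reached into the cKO range. The groups did not overlap as TPM but did after quantile normalisation and as reads scaled to the sum of recovered reads. The means were 2.90 ± 0.632 and 3.89 ± 0.339 FPKM, cKO standing at 134% of Ctrl. The log2 fold change was 0.34 (SE 0.138, 95% interval 0.013 to 0.66), with an unadjusted p of 0.0435 and an adjusted p of 0.302 in limma. It rested on 94 to 144 reads per sample, the fewest among the 10 genes.

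*Pmaip1* (ENSMUSG00000024521), which encodes the MCL1-binding protein NOXA, had the widest spread of the members in cKO testes relative to its mean. It measured 5.70, 4.51 and 4.97 FPKM in Ctrl and 2.93, 6.45 and 3.91 FPKM in cKO testes, where the extremes of all 6 samples were both found. The log2 fold change of -0.20 (SE 0.225, 95% interval -0.73 to 0.33, adjusted p = 0.689 in limma) went to 0.0032 without cKO 1 and to -0.46 without cKO 2, so single cKO samples set both its size and its sign.

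The remaining BH3-only genes overlapped between groups. *Bcl2l11* (ENSMUSG00000027381), encoding BIM, measured 3.17, 3.13 and 3.36 FPKM in Ctrl and 2.73, 3.31 and 2.65 FPKM in cKO testes. Its log2 fold change was -0.12 (SE 0.105, 95% interval -0.36 to 0.13, adjusted p = 0.611 in limma). Only cKO 2 lay within the Ctrl range, and the difference was -0.19 without cKO 2 and -0.07 without cKO 3. *Bad* (ENSMUSG00000024959), whose protein is held inactive by growth factor signalling through phosphorylation, measured 12.7, 11.7 and 13.0 FPKM in Ctrl and 13.5, 12.5 and 15.4 FPKM in cKO testes. Its log2 fold change was 0.13 (SE 0.098, 95% interval -0.099 to 0.36, adjusted p = 0.543 in limma), and 0.055 without cKO 3.

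**Figure D2:**
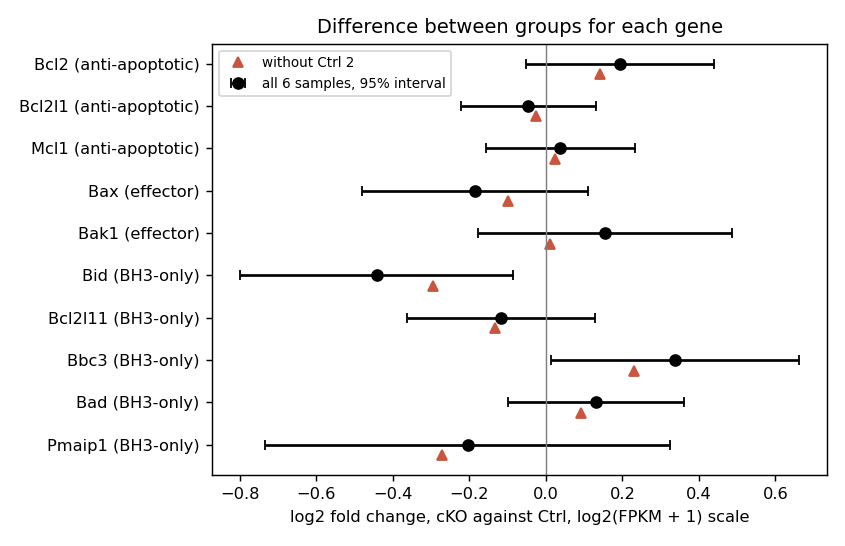
Log2 fold change of each gene, cKO against Ctrl, on the log2(FPKM + 1) scale, with circles and bars for the estimate from all 6 samples and its 95% interval and triangles for the estimate without Ctrl 2. The intervals of Bid and Bbc3 leave out 0 before adjustment for the 16206 genes tested, and the estimate of Bak1 without Ctrl 2 lies at 0.011.

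The balance of pore formers and guardians was described by ratios of FPKM, without a test. The ratio of *Bax* to *Bcl2* was 20.5, 30.3 and 21.9 in Ctrl and 16.0, 16.0 and 19.3 in cKO testes. It was lower in each cKO sample than in each Ctrl sample, with means of 24.3 ± 5.28 and 17.1 ± 1.91 (SD, n = 3), and the separation did not depend on Ctrl 2. *Bcl2*, the denominator, separated by itself, while *Bax* overlapped. Of single tested genes, 12.8% were lower and 10.3% higher without overlap. With all 5 genes included, (*Bax* + *Bak1*) over (*Bcl2* + *Bcl2l1* + *Mcl1*), the ratio was 0.579, 0.663 and 0.616 in Ctrl and 0.568, 0.513 and 0.604 in cKO testes. These groups overlapped, and *Mcl1* made up most of the denominator here, whereas *Bcl2* is the least abundant member. The summed FPKM of the 5 BH3-only genes was 31.0 ± 0.218 in Ctrl and 30.1 ± 1.88 in cKO testes, also overlapping.

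**Figure D3:**
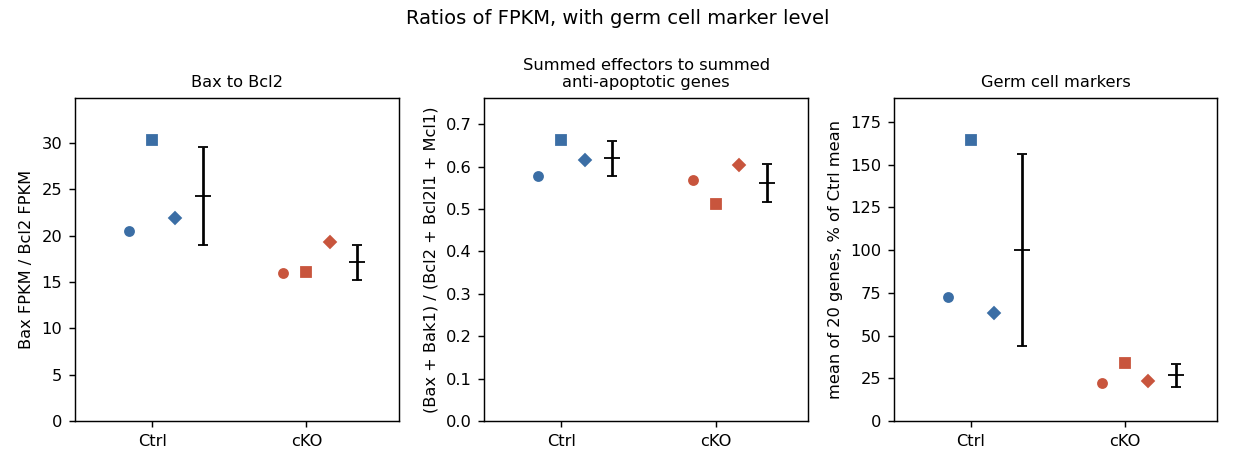
Ratio of Bax to Bcl2 (left), ratio of summed effector to summed anti-apoptotic FPKM (middle) and mean level of 20 germ cell markers as a percentage of the Ctrl mean (right) in each sample, with circles, squares and diamonds for samples 1, 2 and 3 and bars for the mean ± SD (n = 3). The Bax to Bcl2 ratio and the germ cell markers do not overlap between groups and are both highest in Ctrl 2, at 30.3 and 164.5%, while the wider ratio overlaps.

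Levels of cell type markers are given beside these values, although 0 markers of any cell type list were called in the main fit. Some passed the threshold under the 16 alternatives described below. The germ cell markers *Uchl1* and *Mov10l1* passed under 4 and *Dazl* and *Mael* under 3, and the other germ cell markers under fewer or none. The Sertoli cell marker *Gata1* passed under 3, and *Cldn11* and the peritubular myoid marker *Myh11* under 1 each. Counts of markers without overlap stand beside backgrounds of 12.8% lower and 10.3% higher among all tested genes. In whole testes, fewer cells of a type and less RNA per cell cannot be told apart. The mean germ cell marker level was 22.4%, 34.1% and 23.4% of the Ctrl mean in cKO 1, 2 and 3, and the median log2 fold change of the 19 tested germ cell markers was -1.41. Among the Ctrl samples, *Bax*, *Bid* and *Bcl2l1* were highest in Ctrl 2, the sample with the highest germ cell marker level, and the other 7 members were lowest there. On the log2(FPKM + 1) scale, Ctrl 2 differed from the mean of Ctrl 1 and Ctrl 3 by 0.45 for *Bid* and -0.43 for *Bak1*. The difference was only 0.057 for *Bcl2l1*, -0.046 for *Mcl1* and -0.044 for *Bcl2l11*. The share of all tested genes with an extreme in Ctrl 2 was not determined. Leydig cell markers summed to 654 to 845 FPKM in Ctrl and 883 to 991 FPKM in cKO testes, with 4 of 10 higher and 1 lower without overlap. Peritubular myoid markers summed to 526 to 539 and 334 to 518 FPKM, with 2 of 7 lower and 1 higher. Endothelial markers summed to 48.3 to 59.2 and 63.1 to 69.7 FPKM, with 3 of 7 tested markers higher and 0 lower. Sertoli cell markers summed to 1519.8 to 2477 FPKM and 2283 to 2759 FPKM, which overlapped, with 3 of 15 lower and 2 higher without overlap and a lowest adjusted p of 0.0615 in limma. The sums of the macrophage and erythroid markers overlapped between groups, as did each of their tested markers, and all 5 erythroid markers had a positive log2 fold change, with a median of 0.69. The part of these shifts in the values of *Bid*, *Bcl2*, *Bbc3* and the *Bax* to *Bcl2* ratio was not tested.

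Several members share exon bases with a neighbour, and the strand setting of the counting is not given in the sources used here, so their values carry some uncertainty. *Bid* overlaps 628 exon bases of the antisense gene *Bcl2l13*, itself a BCL2 relative, and *Bcl2l13* measured 6.90 ± 0.410 FPKM in Ctrl and 6.18 ± 0.872 in cKO testes (log2 fold change -0.14, adjusted p = 0.557 in limma). *Bak1* overlaps 614 bases of antisense *Ggnbp1*, which was at 1.10 and 1.24 FPKM on average. In GENCODE vM21, from which all these overlaps were read, *Bad* overlaps 524 bases of antisense *Gpr137*, at 7.98 and 7.68 FPKM. The exons of *Bad* cover 2558 bases there and 2007 in the deposited gene model, whose coordinates differ. Whether the deposited model of *Bad* includes the overlap was not checked. The antisense partner of *Bcl2*, *D630008O14Rik*, was listed at 0 in every sample but cKO 3. *Bax* shares 192 bases with *Gm45808* on the same strand. *Bcl2l1*, *Mcl1*, *Bbc3*, *Bcl2l11* and *Pmaip1* overlapped no other annotated exon. The coordinates of *Pmaip1* in this release also differ from the deposited ones.

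The rest of the apoptosis machinery was read from lists of relatives, mitochondrial and downstream factors, caspase inhibitors, death receptor genes and regulators. In these lists 0 genes were called. Of 15 other BCL2 family genes 10 were tested, with a median log2 fold change of -0.08, 1 lower without overlap and 2 higher. Over all tested genes, 12.8% were lower and 10.3% higher without overlap. *Bok*, a BAX-like family member, was at 102 ± 2.46 FPKM in Ctrl, above each of the 10 members, and at 128 ± 9.63 in cKO testes. Its samples did not overlap, at 105, 101 and 100.2 FPKM against 117, 131 and 135 FPKM, and its log2 fold change was 0.32 (SE 0.089, adjusted p = 0.174 in limma). The mitophagy receptor gene *Bnip3l* averaged 52.0 and 43.9 FPKM without overlap (log2 fold change -0.24, adjusted p = 0.301). The BH3-only gene *Bik* averaged 2.51 and 1.36 FPKM with overlap (log2 fold change -0.53, adjusted p = 0.345), and its difference was -0.26 without Ctrl 2.

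All 15 genes on the list of mitochondrial and downstream apoptosis factors were tested, with a median of -0.04, 3 lower without overlap and 0 higher. The shares without overlap over all tested genes were 12.8% lower and 10.3% higher. *Parp1*, a DNA repair enzyme cut by caspases during apoptosis, measured 40.0, 47.2 and 42.7 FPKM in Ctrl and 33.6, 33.8 and 33.2 FPKM in cKO testes. Its cKO samples lay close together below the Ctrl samples, with a log2 fold change of -0.35 (SE 0.085, adjusted p = 0.147 in limma). *Casp6*, which encodes a caspase, averaged 11.2 and 15.0 FPKM with overlap (log2 fold change 0.39, adjusted p = 0.281 in limma).

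Among inhibitors of apoptosis 5 of 7 were tested, all overlapping, with a median of 0.01. *Xiap*, which blocks caspases directly, had a log2 fold change of 0.18 (adjusted p = 0.444 in limma), *Birc3* of 0.15 (adjusted p = 0.520) and *Birc6* of -0.12 (adjusted p = 0.717). With 1 sample left out, these ranged from 0.11 to 0.26 for *Xiap*, from 0.10 to 0.23 for *Birc3* and from -0.25 to -0.02 for *Birc6*. Of the death receptor pathway 8 of 10 genes were tested, with a median of 0.05, 2 lower without overlap and 1 higher. Among all tested genes 12.8% were lower in this way and 10.3% higher. The receptor gene *Fas*, whose signal BID can relay, measured 1.65, 0.787 and 1.41 FPKM in Ctrl and 2.22, 1.83 and 2.26 FPKM in cKO testes. All cKO samples were above the Ctrl samples, and the log2 fold change was 0.46 (SE 0.169, adjusted p = 0.262 in limma), or 0.30 without Ctrl 2. *Tnfrsf10b*, the TRAIL receptor, averaged 1.82 and 1.43 FPKM without overlap (log2 fold change -0.22, adjusted p = 0.378), and *Tnfrsf1a* had a log2 fold change of 0.19 (adjusted p = 0.420).

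Of 10 regulators of BCL2 family genes and proteins 8 were tested, with a median of -0.05, 1 lower without overlap and 2 higher. The background over all tested genes was 12.8% lower and 10.3% higher without overlap. *Ddit3*, a stress-induced transcription factor also called CHOP, measured 11.0, 9.96 and 8.87 FPKM in Ctrl and 13.6, 14.5 and 12.3 FPKM in cKO testes. The groups were apart, with a log2 fold change of 0.40 (SE 0.106, adjusted p = 0.165 in limma). *Foxo1*, a transcription factor that can activate *Bcl2l11*, averaged 5.27 and 4.15 FPKM without overlap (log2 fold change -0.29, adjusted p = 0.358), and is also a marker of early germ cells in the mouse testis. *Trib3* had a log2 fold change of -0.33 (adjusted p = 0.429). Leaving out 1 sample moved *Foxo1* to -0.18, without cKO 1, and *Trib3* to -0.20, without cKO 2, or -0.21, without Ctrl 1. *Trp53*, which encodes p53, the activator of *Bbc3*, *Pmaip1* and *Bax*, averaged 23.2 ± 0.911 FPKM in Ctrl and 24.9 ± 1.05 in cKO testes, without overlap (log2 fold change 0.10, adjusted p = 0.562).

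**Figure D4:**
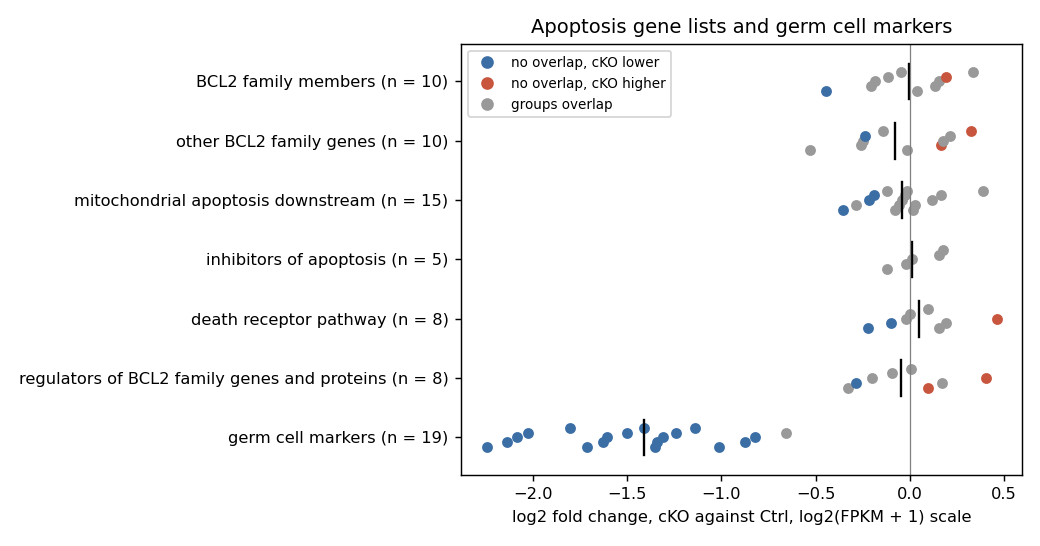
Log2 fold change, cKO against Ctrl on the log2(FPKM + 1) scale, of the tested genes of 6 apoptosis lists and the germ cell markers, 1 point per gene, with a vertical bar at each list's median and blue or red for genes whose groups do not overlap. The germ cell markers centre on -1.41, and the medians of the apoptosis lists lie between -0.08 and 0.05.

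The genes whose profile over the 6 samples was most like a member's were sought, as a description, among the 8242 protein-coding genes averaging 5 FPKM or more. The closest to *Bid* were *mt-Nd1* (Pearson r = 0.995) and *Spg21* (r = 0.994). The closest to *Bbc3* were *1700017B05Rik* (r = 0.996) and *Lbh* (r = 0.990), and the closest to *Bcl2* were *Mettl26* (r = 0.997) and *Gtpbp2* (r = 0.995). The 6 points share the same libraries, and these genes were picked as the highest values of the search.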

How the data were processed

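Polyadenylated RNA from 3 Ctrl and 3 cKO testes at 5 dpp was sequenced. According to the study's methods, reads were aligned with HISAT2 2.0.5 to the mouse genome and counted per gene with featureCounts, and the authors tested counts with DESeq2. The authors deposited FPKM for 54532 genes with GRCm38 coordinates and gene lengths. All values were whole multiples of 1 read per sample, within 0.01 read, so reads were recovered, and 3 reads in a gene of 1 kb equal 0.158 to 0.194 FPKM, which covers counting error only. Groups and replicate numbers came from the sample titles. Replicates were described as biological, and none were duplicates (log2 Pearson r 0.970 to 0.981).

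Because the deposited unit is FPKM, limma 3.58.1 in R 4.3.3 was fitted to log2(FPKM + 1) of genes averaging 0.5 FPKM or more, by group alone, with a mean-variance trend, two-sided p-values and Benjamini-Hochberg adjustment at 0.05. This scale understates changes of low genes. The script was tested on simulated data. The genes named were the 10 members, *Srsf1*, up to 3 tested genes per list with the smallest p, and the 2 most alike genes of the 3 members with the smallest p. *Trp53* was named after its values were seen, and some genes of the lists are not reported here. The members and lists were chosen with earlier results of these data known. Alternatives were adding 0.1 in place of 1, keeping genes from 1 FPKM up, no filter, TPM, quantile normalisation, protein-coding genes only, no trend, voom on recovered reads, a replicate block, sample weights and leaving out each sample.

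BH3 cores were read from GENCODE vM21 transcripts. The extract protocol in the labels mentions retinas. The highest value of 6 photoreceptor genes, chosen after the data were seen, was 0.311 FPKM in any sample, and the germ, Sertoli and Leydig cell markers were present.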

Additional observations from a re-analysis of the deposited data

How the results depend on the processing

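Under 16 alternatives, 0 of the 10 members passed the threshold in any, the lowest adjusted p being 0.165 (*Bid*, protein-coding genes only, limma), and 157 of the 160 values kept their sign. *Mcl1* turned to -0.0070 with sample weights and ranged from -0.013 to 0.082 when 1 sample was left out, and *Pmaip1* ranged from -0.46 to 0.0032. None of 240 values of the 15 pathway genes the naming rule picked passed.

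Over all genes, the counts called lower and higher were 0 and 0, but 1 and 4 as TPM, 176 and 37 among protein-coding genes only, 0 and 1 without the trend, 61 and 22 with voom, and 55 and 13 with sample weights. Leaving out 1 sample gave 0 to 15 lower and 0 to 3 higher, 15 and 3 without Ctrl 2. *Srsf1*, at -0.85 with an adjusted p of 0.058, passed as TPM (-0.86), among protein-coding genes (-0.85), with voom (-0.86) and with sample weights (-0.88), and ranged from -0.91 to -0.81 with 1 sample left out. The cause was not tested.

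With a replicate block, 84 genes were called lower and 14 higher, and *Srsf1* passed at -0.85. The titles give the samples a shared number and state no pairing. After the group mean of each gene was subtracted, the deviations of same-numbered samples correlated at 0.066, 0.016 and 0.088. On these deviations each Ctrl sample, cKO 1 and cKO 3 correlated best with their own number, and cKO 2 with Ctrl 1. With 3 samples per group, these values cannot show whether the samples were paired. The block called 0 members.

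Depth limits *Bbc3* most, on 94 to 144 reads.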
